A study of Mus musculus with 4 samples.

Results

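The 7 genes described here encode linker histone H1 in the mouse. They are the 5 replication-dependent genes Hist1h1a, Hist1h1b, Hist1h1c, Hist1h1d and Hist1h1e and the 2 replacement genes H1f0 and H1fx, and all 7 were among the 12584 genes of the deposited table. The set was chosen by name, because Hist1h1d had been seen to be lower after 5-azacytidine (5-AZA) in these same data. The difference between COX2i + 5-AZA and COX2i is therefore given as a description for every member.

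Single-cell RNA sequencing was run on live cells gated as CD45+. They came from YUMM1.7 OVA RTT tumours, an ovalbumin-expressing mouse melanoma that resists T cell transfer, in Rag2-/- hosts without T or B lymphocytes. OT-1 CD8+ T cells were given on day 7 (ACT) and tumours were taken on day 10, 72 h later. The groups were tumours with an mCherry vector (CTRL), tumours whose cancer cells were forced to express IRF3 and IRF7 (IRF3/7), mCherry tumours under the COX2 inhibitor celecoxib (COX2i), and mCherry tumours under celecoxib with the DNA methyltransferase inhibitor 5-AZA (COX2i + 5-AZA). Each group was 1 library made from 3 pooled tumours, so no replicate check exists and no test between groups was possible. Age was not given in the labels.

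The libraries held 6329 to 10032 cells and 26356819 to 78722763 UMIs (unique molecular identifiers), and the IRF3/7 library was the shallowest, with a median of 3168 UMIs per cell against 6039.5 to 7502 in the others. Of 34447 cells, 10018 (29.1%) carried a droplet barcode that was also present in another library. Levels are counts per 1000000 UMIs of the cells considered (CPM), and each range in parentheses is the exact 95% interval of the counts alone. It does not cover the spread between tumours. Differences are log2 ratios of CPM, called where they reached 2-fold with at least 20 UMIs in the 2 libraries together. Cell classes are those of the deposited annotation, and 9 of them were pooled as monocytes and macrophages. Between them, libraries differed in the share of cycling macrophages (TAM_cycling), which made up 19.1% of monocytes and macrophages in CTRL, 0.397% (20 cells) in IRF3/7, 42.9% in COX2i and 15% in COX2i + 5-AZA. All 9 proliferation markers checked were higher in TAM_cycling than in the other monocytes and macrophages of each library, with Mki67 at 573 against 40.8 CPM in CTRL. In the class Myofibrobl 4 non-immune markers, among them the collagen genes Col1a2 and Col3a1, summed to 7309 to 19244 CPM, and Ptprc, the gene of CD45, was at 18.3 to 37.4 CPM against 317 to 762 CPM in monocytes and macrophages.

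Linker histone H1 binds the nucleosome where DNA enters and leaves it and helps to compact chromatin. Replication-dependent H1 genes are transcribed mainly in S phase, when new chromatin has to be packed, and their mRNAs usually end in a stem-loop instead of a poly(A) tail. Replacement H1 genes give polyadenylated mRNAs outside S phase too, and H1f0 is known for its accumulation in resting and differentiated cells. H1 variants overlap in function.

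In the GENCODE M21 annotation of GRCm38 each of the 7 genes has 1 transcript of 1 exon. Hist1h1d (ENSMUSG00000052565) lies on chromosome 13, 23553262 to 23560686, plus strand. Hist1h1e (ENSMUSG00000051627, 23620629 to 23622558, minus strand), Hist1h1c (ENSMUSG00000036181, 23738808 to 23740367, plus strand) and Hist1h1a (ENSMUSG00000049539, 23763666 to 23764406, plus strand) lie within the same 211 kb. Hist1h1b (ENSMUSG00000058773, 21779883 to 21780625, minus strand) lies 1773 kb away on that chromosome. H1f0 (ENSMUSG00000096210) is on chromosome 15, 79028450 to 79030504, plus strand, and H1fx (ENSMUSG00000044927) on chromosome 6, 87980421 to 87981637, minus strand. Coding sequences of the 5 replication-dependent genes shared 73.1% to 84.6% of bases over the longer of each pair, and 84.5% between Hist1h1d and Hist1h1e. Probes may thus bind a near copy, and each replication-dependent value is uncertain to that extent. Levels are compared between libraries and classes for a gene, not between genes, since each gene is read by its own probes.

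The upstream sequence is shown because it differs between the replication-dependent and the replacement genes. RefSeq promoter windows (GRCm38.p6, 250 bases before to 50 after the start) were matched for all 7 genes. The letters AAACACA, known as the H1 box, were searched on both strands and were found in 4 of 7 windows, and in 7.18% of all 32851 promoter windows. CCAAT was found in 5 of 7, and in 37.4% of all windows, and TATAAA in 4 of 7, and in 13.6%. Hist1h1b, Hist1h1d and Hist1h1e held all 3, as did 0.548% of all windows. H1f0 and H1fx held none of them. The following 30 bases, 5′ to 3′ on the strand of the gene, hold the H1 box in capitals, which starts 117 bases before the RefSeq start in Hist1h1b, 112 in Hist1h1c, 122 in Hist1h1d and 115 in Hist1h1e.
Hist1h1b, chr13:21780723-21780752: ggggactaacAAACACAatttgggattgta
Hist1h1c, chr13:23738685-23738714: gaagtgtaacAAACACAagttgggcgcagc
Hist1h1d, chr13:23554900-23554929: gaggggcaacAAACACAgccacaaggcaaa
Hist1h1e, chr13:23622654-23622683: gaggtgtaacAAACACAactccgcatctga
The 30 bases that follow start with the CCAAT nearest to the gene, in capitals, 51 to 56 bases before the start. TATAAA begins 26 to 33 bases before the start in Hist1h1a, Hist1h1b, Hist1h1d and Hist1h1e.
Hist1h1a, chr13:23763612-23763641: CCAATcacagcacagcactgctctataaat
Hist1h1b, chr13:21780649-21780678: CCAATcacagcccagcaccggcttatataa
Hist1h1c, chr13:23738753-23738782: CCAATcagcgcgcgcctgcgctctatatat
Hist1h1d, chr13:23554981-23555010: CCAATcaccacgcagcttctctctatataa
Hist1h1e, chr13:23622581-23622610: CCAATcacggcgcagctccgccctatataa
The GENCODE transcript of Hist1h1d starts upstream of this stretch, at 23553262, so its start differs from the RefSeq one (23555032). The number of CpG, the dinucleotide that DNA methyltransferases modify, was 10 in the Hist1h1d window, the lowest of the 7 genes, and 12 to 22 in the other replication-dependent ones. H1f0 had 29 and H1fx 40, against a median of 7 over all windows. No methylation was measured.

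Replication-dependent H1 transcripts were concentrated in cycling cells, and H1f0 differed less between cycling and other cells. TAM_cycling stood at 1458 CPM (1440 to 1477) for the sum of the 5 genes in CTRL, at 1552 CPM (1539 to 1565) in COX2i and at 953 CPM (939 to 967) in COX2i + 5-AZA. The other monocytes and macrophages were at 130 CPM in CTRL, 194 CPM in IRF3/7, 225 CPM in COX2i and 113 CPM in COX2i + 5-AZA. TAM_cycling held 81.9% of the replication-dependent H1 UMIs of monocytes and macrophages in CTRL, 6.57% in IRF3/7, 89.9% in COX2i and 75.1% in COX2i + 5-AZA. For the 2 replacement genes those shares were 33.8%, 0.62%, 65.2% and 38.3%, beside 28.8%, 0.855%, 56.5% and 26.4% of all UMIs. In the 3 libraries with at least 50 TAM_cycling cells, H1f0 was higher in this class than in the other monocytes and macrophages, at 290 against 230 CPM in CTRL, 302 against 208 CPM in COX2i and 276 against 159 CPM in COX2i + 5-AZA.

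NK cells, annotated in numbers of 50 or more outside CTRL, were, among classes of that size, the highest for the replication-dependent sum in 3 libraries, at 1062 CPM in IRF3/7, 2320 CPM in COX2i (50 cells) and 1468 CPM in COX2i + 5-AZA. In COX2i TAM_cycling (1552 CPM) and cDC1 (1338 CPM) followed. These cells carried cycling markers as well, with the 9 proliferation markers summing to 2506, 4453 and 2755 CPM in NK cells. The lowest classes of that size for the sum were Macro in CTRL (105 CPM) and COX2i + 5-AZA (52.3 CPM), TAM_C1q in COX2i (189 CPM) and DC3 in IRF3/7 (52.9 CPM).

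Among classes with at least 50 cells, Hist1h1d by itself was highest in TAM_cycling in CTRL (56.3 CPM), in NK cells in IRF3/7 (33.3 CPM), in cDC1 in COX2i (116 CPM) and in TAM_cycling in COX2i + 5-AZA (30.2 CPM). The 20 TAM_cycling cells of IRF3/7 were at 105 CPM (59.9 to 170, 16 UMIs). Hist1h1d was at 0 UMIs in neutrophils of CTRL and of COX2i + 5-AZA, where 3 UMIs would be 9.72 and 4.16 CPM, and in Monocyte_1 and DC3 of IRF3/7, where 3 UMIs would be 4.24 and 14.4 CPM. Neighbours in the order of its levels did not differ beyond counting error for 6 of 8 pairs in CTRL, 3 of 6 in IRF3/7, 7 of 9 in COX2i and 12 of 13 in COX2i + 5-AZA. In TAM_C1q Hist1h1d was at 5.76 CPM in CTRL, 12.6 CPM in COX2i and 3.86 CPM in COX2i + 5-AZA, and in TAM_Spp1 at 4.16, 12.7 and 3.18 CPM. COX2i was the highest library in both classes. In TAM_H2Ab1, which reached 50 cells in IRF3/7 and COX2i + 5-AZA alone, it was at 19.3 and 2.99 CPM, and the replication-dependent sum at 349 CPM (324 to 376) and 80.6 CPM (72.4 to 89.5), while H1f0 was at 163 CPM in both. Lists of cycling genes differed there as well, with S-phase genes summing to 1924 and 980 CPM and G2/M genes to 903 and 419 CPM.

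**Figure D1:**
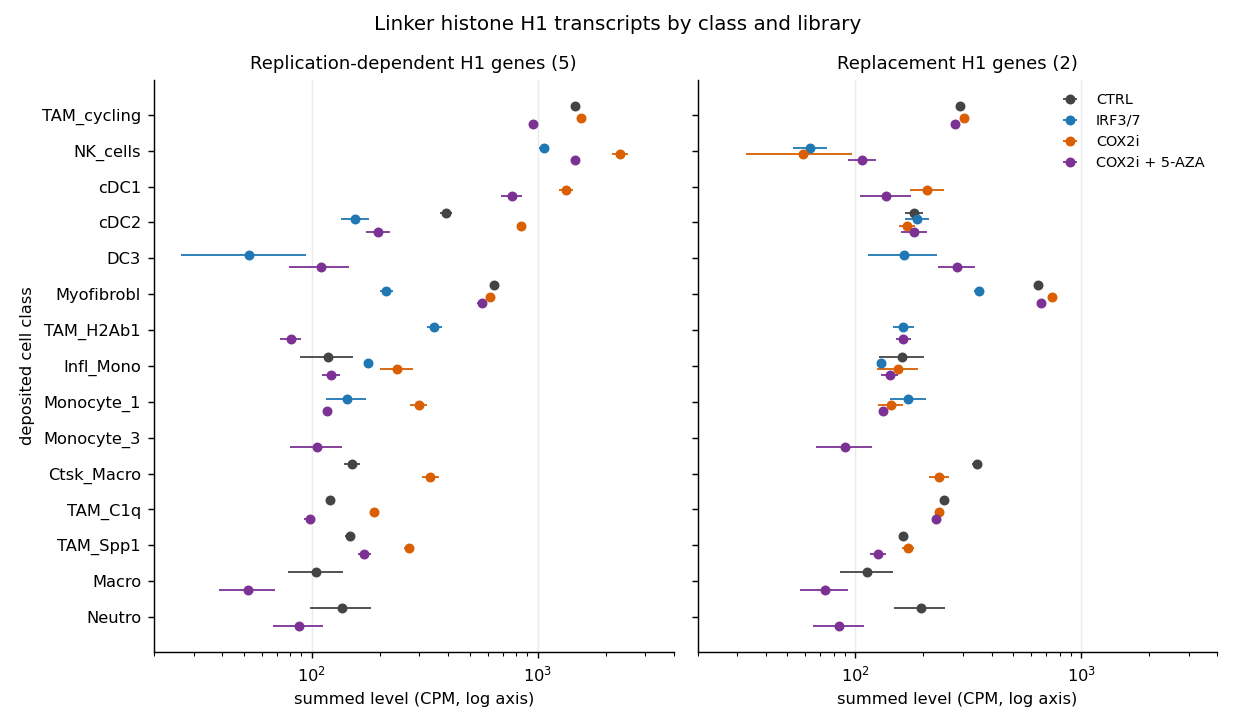
Summed level of the 5 replication-dependent (left) and the 2 replacement (right) H1 genes in CPM on a log axis, for each deposited class with at least 50 cells in that library; points are libraries and bars exact Poisson 95% intervals. TAM_cycling, NK cells and cDC1 lie at the right of the left panel, with TAM_cycling at 953 to 1552 CPM, whereas Myofibrobl lies furthest right in the right panel in each library.

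H1f0 had another order. Among classes with at least 50 cells it was highest in the non-immune class Myofibrobl in each library, at 621 CPM in CTRL, 333 CPM in IRF3/7, 718 CPM in COX2i and 633 CPM in COX2i + 5-AZA. Its lowest level among them was in Macro in CTRL (111 CPM) and COX2i + 5-AZA (72.1 CPM) and in NK cells in IRF3/7 (61.7 CPM) and COX2i (54.9 CPM). In mast cells of CTRL, of which there were 38, under the minimum of 50 for a comparison, H1f0 was at 682 CPM (594 to 779). Of the neighbours in the order of H1f0 levels, 4 of 8 in CTRL, 3 of 6 in IRF3/7, 5 of 9 in COX2i and 9 of 13 in COX2i + 5-AZA did not differ beyond counting error.

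The ratio of replication-dependent to replacement UMIs set the classes apart within a library. It was 5.01 in TAM_cycling against 0.565 in the other monocytes and macrophages of CTRL, 5.13 against 1.08 in COX2i and 3.45 against 0.707 in COX2i + 5-AZA. NK cells were at 16.8 in IRF3/7, 39.5 in COX2i and 13.7 in COX2i + 5-AZA. In IRF3/7 the non-cycling ratio was 1.43.

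H1fx was scarce. It was at 0.951 CPM in monocytes and macrophages of CTRL, 0.672 CPM in IRF3/7, 1.01 CPM in COX2i and 0.409 CPM in COX2i + 5-AZA, from 12 to 63 UMIs. Of the 12 UMIs in IRF3/7, 8 came from 1 cell, of the class Ctsk_Macro. In Myofibrobl it was at 20.7 CPM in CTRL, 19.2 CPM in IRF3/7, 20.6 CPM in COX2i and 30.2 CPM in COX2i + 5-AZA. In CTRL mast cells it was at 107 CPM (74.0 to 149).

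**Figure D2:**
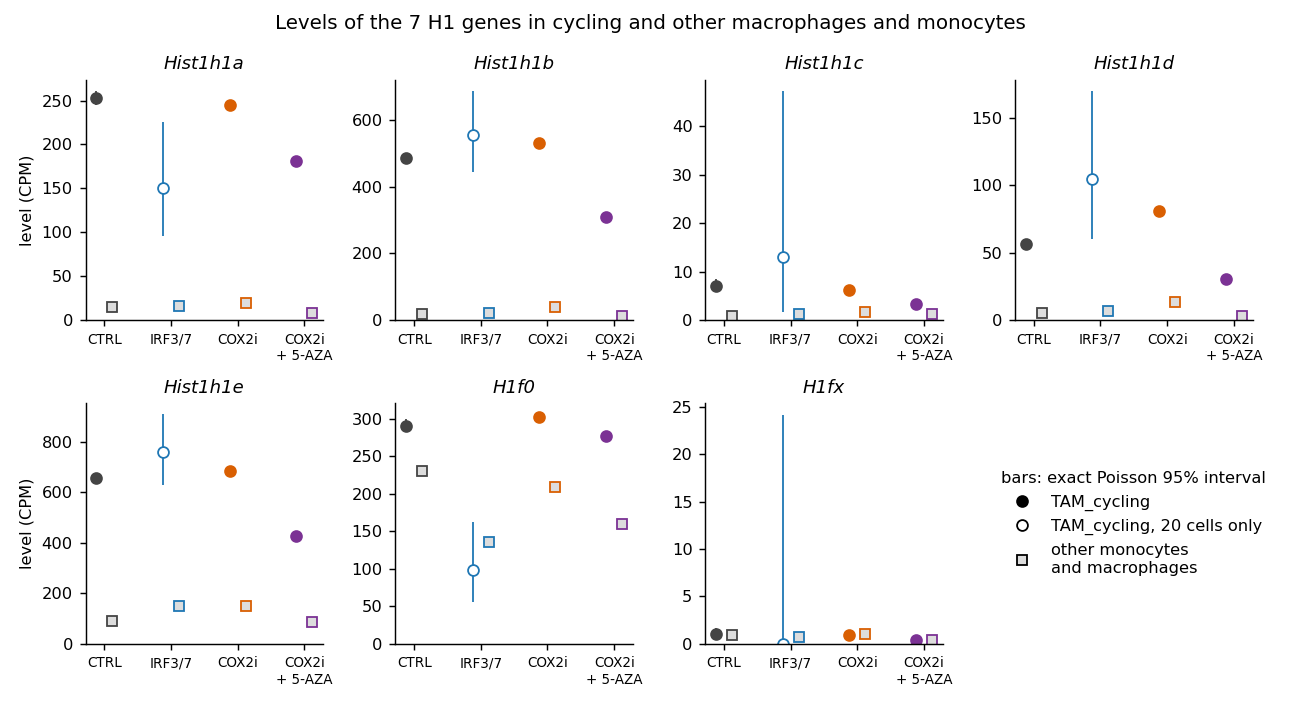
Level in CPM of each of the 7 genes by library in TAM_cycling (circles) and in the other monocytes and macrophages (squares), with exact Poisson 95% intervals; each panel has its own axis from 0, and the open circle is the 20 IRF3/7 cells. Hist1h1d stands at 56.3, 81.3 and 30.2 CPM in TAM_cycling of CTRL, COX2i and COX2i + 5-AZA, and H1f0 differs little there, at 290, 302 and 276 CPM.

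Within TAM_cycling the S-phase level of a cell went with more replication-dependent H1 and less H1f0. Cells of CTRL, COX2i and COX2i + 5-AZA were put in 4 bins of like size by the share of UMIs from a list of 35 S-phase genes that holds no histone. Hist1h1d went from 31.3 CPM in the lowest bin to 75.01 CPM in the highest in CTRL, from 54.6 to 99.1 CPM in COX2i and from 17.1 to 40.4 CPM in COX2i + 5-AZA. The other replication-dependent genes together went from 660 to 1933, from 838 to 1862 and from 421 to 1320 CPM. H1f0 went the other way, from 432 to 184 CPM in CTRL, from 446 to 180 CPM in COX2i and from 368 to 176 CPM in COX2i + 5-AZA.

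**Figure D3:**
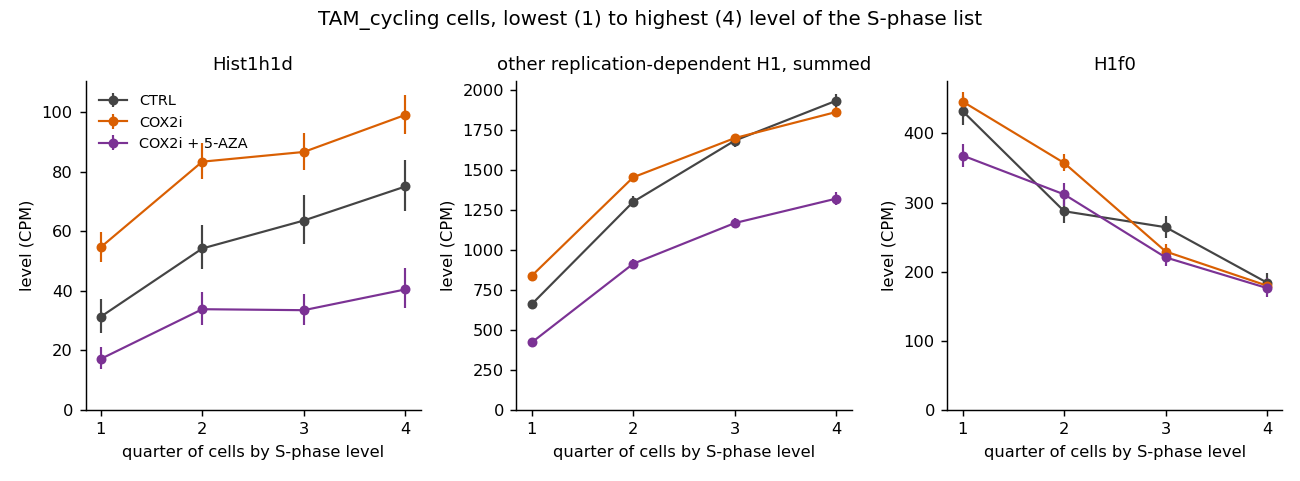
Level in CPM of Hist1h1d, of the other 4 replication-dependent H1 genes summed and of H1f0 in 4 bins of TAM_cycling cells ranked by the level of the S-phase list, with exact Poisson 95% intervals; lines are libraries. Hist1h1d and the summed genes are higher in bin 4 than in bin 1 in each of the 3 libraries, and H1f0 declines, for example from 446 to 180 CPM in COX2i. Hist1h1d is level from bin 2 to bin 3 in COX2i + 5-AZA, at 33.8 and 33.5 CPM.

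Adding 5-AZA to COX2i is the comparison on which Hist1h1d was chosen. In monocytes and macrophages Hist1h1d was at 19.9 CPM in CTRL, 7.28 CPM in IRF3/7, 51.6 CPM in COX2i and 10.1 CPM in COX2i + 5-AZA, so COX2i was the highest library. Its log2 ratio for COX2i + 5-AZA against COX2i was -2.35 (-2.47 to -2.23), the 82nd lowest of 11940 genes with 20 UMIs. Scaling by size factors instead of totals would raise ratios in this comparison by 0.19, and in IRF3/7 against CTRL by 0.52. Of the 7 members 6 were called lower, against 9.77% of all genes (1167), with H1f0 not called at -0.46 (-0.49 to -0.42). Hist1h1b, at 319 CPM in COX2i, was at 91.6 CPM (-1.80), Hist1h1a went from 147 to 53.5 CPM (-1.45) and Hist1h1e from 453 to 178 CPM (-1.35). Because the libraries differ in their share of TAM_cycling, these pooled ratios include class mix, and with the class mix of COX2i Hist1h1a (-0.47), Hist1h1b (-0.82), Hist1h1c (-0.70) and Hist1h1e (-0.69) were under 2-fold. In such sums fewer expressing cells and less RNA per cell cannot be told apart.

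Within TAM_cycling the difference was smaller, and it was largest for Hist1h1d among the replication-dependent H1 genes. Hist1h1d was at 56.3 CPM (52.7 to 60.1) in CTRL, 81.3 CPM (78.3 to 84.3) in COX2i and 30.2 CPM (27.7 to 32.9) in COX2i + 5-AZA, with COX2i the highest and COX2i + 5-AZA the lowest of the 3. The log2 ratio against COX2i was -1.43 (-1.56 to -1.29). The other genes were at -0.43 for Hist1h1a, -0.78 for Hist1h1b, -0.87 for Hist1h1c and -0.68 for Hist1h1e. H1f0 was at 290, 302 and 276 CPM and its ratio was -0.13 (-0.18 to -0.08). Called lower were 2 of the 7 members, Hist1h1d and H1fx (8 against 34 UMIs, -1.12, -2.44 to 0.02), against 6.02% of all genes (685).

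As a share of replication-dependent H1 UMIs in TAM_cycling, Hist1h1d was 3.86% (3.62 to 4.12) in CTRL, 5.24% (5.05 to 5.43) in COX2i and 3.17% (2.92 to 3.44) in COX2i + 5-AZA. Hist1h1e was 45.0%, 44.2% and 45.0%, and Hist1h1b 33.3%, 34.4% and 32.5%. The log2 ratio of Hist1h1d relative to the other 4 genes was -0.75 (-0.89 to -0.62) in TAM_cycling and -1.49 (-2.12 to -0.92) in Myofibrobl. In each of the 4 bins by S-phase level it was lower with 5-AZA added, with log2 ratios from -1.68 to -1.29. After thinning each cell to 2000 UMIs, a Hist1h1d UMI was found in 10.7% of TAM_cycling cells in CTRL, 14.3% in COX2i and 5.02% in COX2i + 5-AZA (31.2%, 42.1% and 21.4% unthinned). The thinned share was 0 of 151 in neutrophils of COX2i + 5-AZA and 0 of 50 in those of CTRL. Counts of 0 allow shares of cells with a UMI, at this thinned depth, of up to 1.99% and 6% (3 cells). They limit detection and not the share of cells that express the gene. Unthinned medians were 2626.5 and 3900 UMIs in these neutrophils, against 10038 to 13011 UMIs in TAM_cycling.

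Hist1h1d was lower with 5-AZA added in all 9 classes where it could be compared, past 2-fold in each, with a median log2 ratio of -2.002 and a range of -3.39 (Infl_Mono, 13 and 8 UMIs) to -1.43 (TAM_cycling). These 9 classes come from the same 2 libraries on which Hist1h1d was chosen, so they are not repeats. In cDC1 it went from 116 to 26.5 CPM and in NK cells from 78.4 (20 UMIs) to 26.4 CPM. The other replication-dependent genes summed were lower in all 9 too, with a median of -0.72, and in Myofibrobl at -0.08 (-0.16 to -0.004). H1f0 ranged from -0.60 in cDC1 to 0.90 in NK cells (14 UMIs in COX2i), with 0 of 9 classes past 2-fold.

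**Figure D4:**
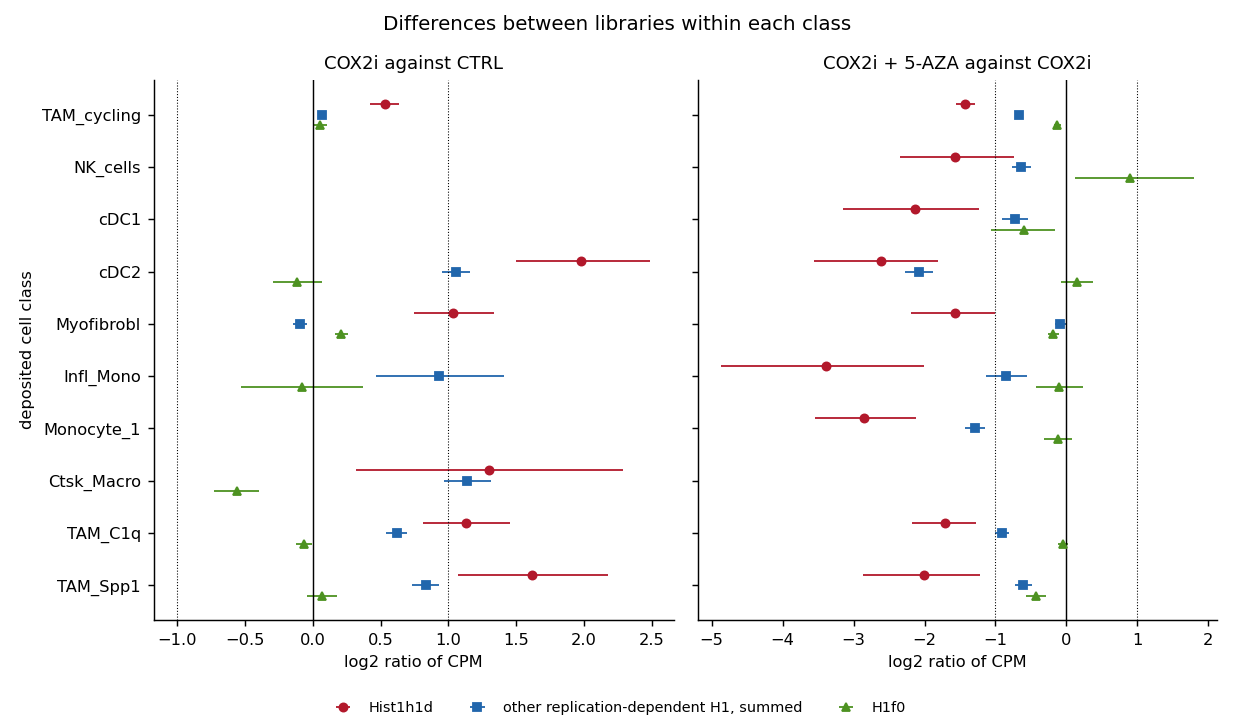
Log2 ratios of CPM by class, where each library had 50 cells or more, for COX2i against CTRL (left) and COX2i + 5-AZA against COX2i (right); dotted lines mark 2-fold and bars are exact conditional 95% intervals. Hist1h1d lies right of 0 in 6 of 6 classes on the left and left of 0 in 9 of 9 on the right, and both panels share the COX2i library.

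Under COX2i alone the replication-dependent genes were higher than in CTRL in monocytes and macrophages, while H1f0 differed little. This comparison shares the COX2i library with the one that chose Hist1h1d, so a high COX2i value enters both, and the Hist1h1d ratios are a description. The replication-dependent sum was 513 CPM in CTRL and 974 CPM in COX2i, a log2 ratio of 0.93 (0.90 to 0.95). Of the 7 members 2 were called higher, Hist1h1b (154 to 319 CPM, 1.05) and Hist1h1d (1.37, 1.27 to 1.47), against 1.93% of all genes (230). H1f0 was at 247 and 261 CPM (0.08, 0.05 to 0.11), but without TAM_cycling at 230 and 208 CPM (-0.14, -0.19 to -0.09). It was lower in 4 of 7 classes and higher in 3, with 2 lower and 2 higher beyond counting error. With the class mix of CTRL both calls were lost, with Hist1h1b at 0.26 and Hist1h1d at 0.70. Of the S-phase genes 2 of 35 and of the G2/M genes 6 of 29 were past 2-fold higher, against 1.93% of all genes, with medians of 0.74 and 0.92 against 0.01.

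In TAM_cycling the sum differed less, at 0.09 (0.07 to 0.11). There 0 of the 7 members was called higher, against 1.62% of all genes (184). Hist1h1d was at 0.53 (0.42 to 0.64) there, and its ratio relative to the other 4 was 0.46 (0.35 to 0.57). Outside TAM_cycling the sum was at 0.79 (0.74 to 0.85). Hist1h1d was higher in 6 of 6 classes (0.53 to 1.98), and in Myofibrobl, where the other genes were at -0.09, it went from 13.9 to 28.6 CPM.

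IRF3/7 against CTRL shares no library with the comparison that chose Hist1h1d. In monocytes and macrophages the replication-dependent sum was at 206 against 513 CPM, a log2 ratio of -1.31 (-1.36 to -1.26). Called lower were 3 of the 7 members, against 32.2% of all genes (3803), namely Hist1h1a (17.2 against 83.1 CPM, -2.27), Hist1h1b (25.2 against 154 CPM, -2.61) and Hist1h1d (7.28 against 19.9 CPM, -1.45). With size factors Hist1h1d was at -0.93 and the sum at -0.79, both under 2-fold. Hist1h1e was at 155 against 254 CPM (-0.71) and H1f0 at 135 against 247 CPM (-0.87).

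Markers of cycling cells moved with these values: 29 of 35 S-phase genes (median -2.20) and 29 of 29 G2/M genes (median -3.11) were past 2-fold lower, against 32.2% of all genes and a median of -0.55 over all genes. Leaving out TAM_cycling turned the direction. Without TAM_cycling the sum was higher in IRF3/7, at 194 against 130 CPM (0.58, 0.52 to 0.64), and Hist1h1e led it (150 against 90.6 CPM, 0.73, 0.65 to 0.80). Infl_Mono made up 4335 of these 5015 cells in IRF3/7 but 93 of 6157 in CTRL, where TAM_C1q was largest (3199). The ratios without TAM_cycling therefore include class mix. Within Infl_Mono the sum was at 177 against 118 CPM (57 UMIs in CTRL). Hist1h1a was at 0.16 (-0.05 to 0.37), Hist1h1b at 0.10 (-0.09 to 0.28) and Hist1h1d at 0.32 (-0.03 to 0.66), which do not exceed counting error. H1f0 was lower, at 135 against 230 CPM (-0.76, -0.83 to -0.70). Within Infl_Mono alone it was at 130 CPM (124 to 136) against 161 CPM (127 to 201), so the intervals overlap. In cDC2 H1f0 was at 188 against 175 CPM. In Infl_Mono, the class of 4335 of the IRF3/7 cells, Hist1h1e was at 148 CPM against 78.5 CPM in CTRL (38 UMIs), 159 CPM in COX2i and 90.1 CPM in COX2i + 5-AZA. In Myofibrobl the sum was at 214 against 642 CPM (-1.58, -1.68 to -1.49), the 9 proliferation markers at 962 against 1916 CPM, and H1f0 at 333 against 621 CPM. The sum was lower in cDC2 too, at 156 against 394 CPM.

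COX2i + 5-AZA was also set beside CTRL, and it shares a library with each of the 2 comparisons above that involve COX2i. In monocytes and macrophages the members lay between -1.22 (H1fx) and -0.38 (H1f0), with Hist1h1d at -0.97 (-1.11 to -0.84) and the replication-dependent sum at -0.62. Without TAM_cycling Hist1h1d was at -0.82 (-1.14 to -0.51), the sum at -0.20 (-0.26 to -0.15), Hist1h1e at -0.04 and H1f0 at -0.53, and Hist1h1c turned to 0.49. Monocytes were 4684 of these 7481 cells in COX2i + 5-AZA and 139 of 6157 in CTRL, so these ratios include class mix. By class H1f0 had a median of -0.15 over 8 classes (-1.22 to 0.04), with 6 lower and 2 higher. In TAM_C1q H1f0 was at 227 against 245 CPM. In TAM_Spp1 the sum was higher, at 171 against 148 CPM (0.21, 0.09 to 0.33). H1fx was the 1 member called lower of 7, against 11.3% of all genes (1361). In TAM_cycling Hist1h1d was at -0.90 (-1.05 to -0.74), the other replication-dependent genes at -0.60 (-0.63 to -0.57), and H1f0 at -0.07. The 2 members called lower were Hist1h1c (3.38 against 7.11 CPM, -1.07, and -0.98 with size factors) and H1fx (-1.20, from 8 and 16 UMIs), against 7.75% of all genes (866).

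The replication-dependent core histones, which build the nucleosome, were followed over the 27 genes with 20 UMIs of a list of 28. In TAM_cycling, COX2i + 5-AZA against COX2i called 6 of 27 lower, against 6.02% of all genes, and had a median of -0.51, against -0.09 over all genes. The other lists of that comparison are read against the same 6.02% lower, and 4.1% higher. Of the 32 replication-dependent histone genes, Hist1h1d had the lowest ratio but 2, after Hist1h3b (-2.33) and Hist2h2ac (-1.44), and Hist1h2bc was highest (0.50). Hist1h1d was chosen on this comparison, and COX2i against CTRL shares the COX2i library, so its ranks in both are a description. COX2i against CTRL put Hist1h1d highest of the 32 (0.53), while 17 of 27 core histones were lower, 2 of them past 2-fold (median -0.38), against 2.75% of all genes past 2-fold lower. COX2i + 5-AZA against CTRL had 14 of 27 past 2-fold lower (median -1.07), against 7.75% of all genes. Other lists moved less in TAM_cycling in COX2i + 5-AZA against COX2i, as the medians were -0.10 for 35 S-phase genes and -0.22 for 29 G2/M genes, and 0 of either passed 2-fold. Of the 20 genes of histone mRNA processing and transcription, which trim and transcribe these genes, 0 passed 2-fold (median -0.08), with Ccne2, a cyclin E, at -0.41. Histone chaperones, which escort histones to DNA, had 0 of 16 past 2-fold (-0.12), and ranged from Hjurp, which loads the centromeric H3 variant, at -0.56 to Daxx, which loads H3.3, at 0.55. Of 9 chromatin proteins that compete with H1 for nucleosomes 1 was past 2-fold lower (median -0.38), Hmga2, a high mobility group protein, at 17.4 against 49.8 CPM (-1.52, -1.70 to -1.34). Of 13 DNA methylation genes 0 were past 2-fold (-0.16).

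**Figure D5:**
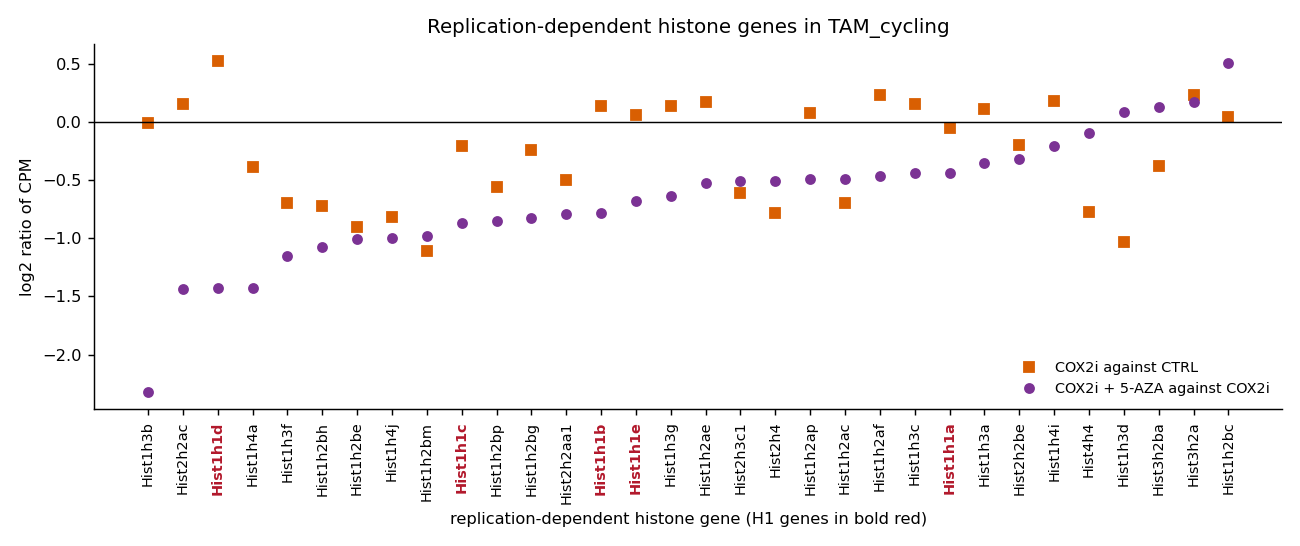
Log2 ratio of CPM in TAM_cycling for each of the 32 replication-dependent histone genes with at least 20 UMIs, ordered by COX2i + 5-AZA against COX2i (circles), with COX2i against CTRL as squares. Hist1h1d, which was chosen on the comparison shown as circles, is at -1.43 and has the highest square, at 0.53. Both comparisons share the COX2i library.

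Over 40 groups of class and library with at least 50 cells, 11467 genes were compared by Pearson r of log2(CPM + 1). The groups of a library share its depth, so r is a description. Hist1h1d was most like Ptma (r 0.91), Spc24 (0.90) and Hist1h3c (0.89). Hist1h1a was most like Hist1h2ae, Hist1h2ap and Hist1h3c (r 0.95 to 0.96), Hist1h1b like Pclaf, Hist1h2ae and Ncapg (0.95 to 0.97), and Hist1h1e like Hist1h2ap, Hist1h3c and Hist1h2ae (0.91 to 0.93). Among the genes most like H1f0 were Sept10 (0.89) and Sh3pxd2a (0.87), and among those most like H1fx were Mapk8ip1 (0.82) and Abhd2 (0.81). Hist1h1c, which rests on few UMIs, followed Hist1h3g, Nfatc2ip and Pkmyt1 only loosely (0.66 to 0.68). With the S-phase list the r was 0.96 for Hist1h1a, 0.85 for Hist1h1d and 0.23 for H1f0.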

How the data were processed

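Expression was measured in 4 libraries of CD45+ tumour cells with the Chromium Flex kit, in which probe pairs are ligated on fixed RNA (22 h fixation). The authors processed reads with Cell Ranger multi 7.1.0 and the mm10 probe set, kept cells by gene number and mitochondrial and ribosomal share, removed ribosomal and mitochondrial genes, and deposited raw UMI counts per gene and cell, not normalised, with a class for each cell. In 34447 of 34447 cells the UMI sum equalled the deposited total.

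Here UMI counts were summed per class and library and given as CPM with exact Poisson intervals, log2 ratios with exact conditional intervals and shares with Clopper-Pearson intervals, all at 95%. A limit beside a count of 0 is 3 counts of the total. A ratio relative to the other H1 genes used the conditional odds ratio interval. A gene counted in a comparison with at least 20 UMIs, and a call needed 2-fold. In counts over all genes, a library at 0 was set to a floor of 3 UMIs. Totals of 26356819 to 78722763 UMIs made 3 UMIs worth 0.0381 to 0.114 CPM. Classes with under 50 cells in a library were not compared, except in the class-mix alternative, which took classes from 20 cells. No doublet caller was run. An alternative dropped the 5% of cells with most UMIs. Numpy 2.4.6 and scipy 1.17.1 were used, and scripts were tested on simulated data. Genes named as most similar were from the 3 with the highest Pearson r among genes with at least 200 UMIs (some are not reported here), and named list members were those with the largest rise or fall at 200 UMIs. The members and lists were chosen with earlier results of these data known.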

Additional observations from a re-analysis of the deposited data

Results flagged for a closer look

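Hist1h1c, a replication-dependent H1 gene with few UMIs in these libraries, went opposite ways in 2 macrophage classes when COX2i + 5-AZA was set beside CTRL. In TAM_Spp1 its log2 ratio was 2.04 (0.63 to 3.59, from 14 against 7 UMIs), and in TAM_cycling it was -1.07 (-1.55 to -0.61, from 61 against 112 UMIs). It stands out because both intervals exclude 0 in opposite directions, and the difference between the classes was not tested. The TAM_Spp1 value rests on few UMIs.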

How the results depend on the processing

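All values are log2 ratios, and no setting was a test. Of 67 alternative values of the 10 main ratios, 63 had the same direction. By size, 23 were classed as the same, 42 as moved and 2 as reversed. In IRF3/7 against CTRL, monocytes and macrophages, the class-mix setting kept 3 classes with at least 20 cells in both libraries, and 95.8% of its weight fell on the 20 IRF3/7 TAM_cycling cells, so its values are close to those of these cells alone. There the replication-dependent sum turned to 0.58 without TAM_cycling and to 0.12 with the class mix of CTRL, and was -0.79 with size factors, -1.23 in cells with more than 2000 genes, -0.79 as a mean of single-cell CPM and -1.25 without shared droplet barcodes. The replacement sum was -0.76, -1.52, -0.35, -0.97, -0.73 and -0.80 in that order. Single genes turned as well, with Hist1h1a at 0.16, Hist1h1b at 0.10, Hist1h1d at 0.32 and the sum without Hist1h1d at 0.59 without TAM_cycling, and Hist1h1b at 0.20, Hist1h1d at 0.89 and that sum at 0.080 with the class mix of CTRL.

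For COX2i against CTRL in monocytes and macrophages, the replication-dependent sum was 0.79 without TAM_cycling, 0.24 with the class mix of CTRL, 0.89 in cells with more than 2000 genes, 1.05 as a mean of single-cell CPM and 1.00 without the 5% of cells with most UMIs. The replacement sum turned to -0.14 without TAM_cycling and -0.051 with that class mix. In TAM_cycling the replication-dependent sum was 0.12 both as a mean of single-cell CPM and without shared barcodes.

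For COX2i + 5-AZA against COX2i in monocytes and macrophages, Hist1h1d was -2.16 without TAM_cycling, -1.46 with the class mix of COX2i, -2.16 with size factors, -2.55 as a mean of single-cell CPM and -2.61 without the 5% of cells with most UMIs. The replication-dependent sum was -0.996, -0.72, -1.36, -1.70 and -1.77 in that order, -1.51 in cells with more than 2000 genes and -1.49 without shared barcodes. The replacement sum was -0.39, -0.14, -0.27, -0.57 and -0.52. In TAM_cycling Hist1h1d was -1.57 without the 5% of cells with most UMIs. The replication-dependent sum there was -0.62 with size factors, -0.78 as a mean of single-cell CPM, -0.66 without shared barcodes, -0.85 without the 5% of cells with most UMIs and -0.64 with the S-phase mix of COX2i.

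The settings on shared barcodes and S-phase mix were chosen after seeing the data. The cause of the changes was not tested. No paired analysis was possible because each group is 1 library. Depth limits H1fx and Hist1h1c most, as they rest on the fewest UMIs.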
